A study of Homo sapiens with 4 samples.

Results

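Transcripts of 10 genes whose proteins bind N6-methyladenosine (m6A) in RNA were examined in Hep-G2, an established cell line from a human liver tumour. The genes are YTHDF1, YTHDF2, YTHDF3, YTHDC1, YTHDC2, IGF2BP1, IGF2BP2, IGF2BP3, HNRNPA2B1 and HNRNPC. They were chosen by name as known reader proteins, by a rule that holds no threshold on measured values, and all 10 were matched by symbol to Ensembl identifiers among the 62893 genes counted. All 10 were also among the 13767 genes with enough reads to be tested. Total RNA was sequenced from cells with the scramble shRNA SHC002 and from cells with the FTO shRNA TRCN0000246247, both at passage 21, so both groups carry a hairpin and 1 hairpin stands for the loss of FTO, an enzyme that removes the methyl group of m6A. Each group has 2 count tables, which the labels number as replicates 1 and 2 and which are called run 1 and run 2 here, of 20047409 to 20706611 gene-assigned reads.

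Run 1 and run 2 of each group agree within sampling noise, so their reads were added up and each group counts as 1 sample. Nothing in the labels says that the runs came from separate cultures, or that they are repeat sequencing of 1 library. The chi-square per degree of freedom was 1.019 between the scramble runs and 1.013 between the shFTO runs, against 118 to 120 between runs of different groups. Each ratio below therefore compares 1 sample with 1 sample, has no replicate check and carries no p-value. Intervals in brackets are exact 95% Clopper-Pearson limits from the summed reads, which hold counting error and no other. FTO itself was 5.32-fold lower in shFTO (4.63 to 6.13), with 594 and 550 reads in scramble and 116 and 128 in shFTO. In bulk RNA, fewer cells that make a transcript and less of it per cell cannot be told apart.

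Writers of m6A methylate adenosines in messenger RNA, erasers remove the mark, and readers bind it and set what happens to the transcript. The YTHDF proteins and YTHDC1 hold the modified base in an aromatic cage of the YTH domain: the YTHDF proteins act in the cytoplasm, where YTHDF2 in particular brings transcripts to the deadenylase complex CCR4-NOT, and YTHDC1 acts in the nucleus on splicing and export. The IGF2BP proteins bind through KH domains and are known for keeping target transcripts stable, and IGF2BP1 and IGF2BP3 are oncofetal genes that liver tumours often express again. HNRNPA2B1 and HNRNPC are abundant nuclear RNA-binding proteins whose access to RNA is known to depend on m6A, for HNRNPC through opening of the local RNA fold.

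Since the members include close paralogs, the sequences that decide whether their reads can be told apart are shown first. The most alike 90-base coding windows were sought within single exons, so windows across exon junctions were not compared. Those of YTHDF1 and YTHDF2 lie at the start of the YTH domain, in exon 4 of each gene, at chr20:63202719-63202808 (minus strand) and chr1:28743465-28743554 (plus strand). Those of IGF2BP1 and IGF2BP3 lie in the first KH domain, in exon 6 of each gene, at chr17:49038355-49038444 (plus strand) and chr7:23351310-23351399 (minus strand). Sequences and positions are from GENCODE v29 transcripts on GRCh38, not the hg19 build of the counts, and capitals mark the bases that differ within a pair.
YTHDF1: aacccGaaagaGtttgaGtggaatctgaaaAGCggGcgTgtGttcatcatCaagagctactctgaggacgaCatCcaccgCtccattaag
YTHDF2: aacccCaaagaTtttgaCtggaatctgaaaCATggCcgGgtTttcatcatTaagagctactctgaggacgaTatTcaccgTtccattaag
IGF2BP1: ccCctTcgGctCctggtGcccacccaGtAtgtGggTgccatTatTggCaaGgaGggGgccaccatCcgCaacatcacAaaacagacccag
IGF2BP3: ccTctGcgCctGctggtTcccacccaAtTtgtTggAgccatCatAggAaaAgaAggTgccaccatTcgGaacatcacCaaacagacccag
Even in these windows YTHDF1 and YTHDF2 differ at 13 of 90 bases and IGF2BP1 and IGF2BP3 at 18. The longest identical coding run was 20 bases between YTHDF1 and YTHDF2 and 22 bases between IGF2BP1 and IGF2BP2, and no principal transcript of a member shared any 50-base stretch with that of another member. A read of 50 bases or more from these transcripts therefore fits 1 member of a family and not another, although no source used here gives the read length.

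Other genes share more sequence with some members than the members do with each other. HNRNPC shared 27% of its 50-base stretches with 9 other genes, most of them processed pseudogenes, and the longest run that its coding sequence shares with HNRNPCP2 is 154 bases. The part of that run in exon 3, at chr14:21233953-21234030 (minus strand), is printed because a read wholly within the run cannot be placed between the 2 genes.
HNRNPC: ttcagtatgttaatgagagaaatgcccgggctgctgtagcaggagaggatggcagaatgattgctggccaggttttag
HNRNPCP2 held 72 and 56 reads in scramble and 78 and 53 in shFTO, few beside the 19586 to 24831 reads of HNRNPC. How reads that fit several genes were counted is not given. A low count of a copy therefore does not show that few reads were shared or lost. Of the 50-base stretches of IGF2BP3, 44.5% also occur in other genes, mainly MALSU1, a mitochondrial ribosome assembly factor on the opposite strand whose exons overlap 1521 of the 8511 exonic bases of IGF2BP3. As no strand setting was given, the level of IGF2BP3 is the least certain of the 10. YTHDF2 shared 12.2% of its stretches, all with the pseudogene YTHDF2P1, which was listed at 0 reads in all 4 tables, and IGF2BP2 shared 8.77%. In the 1 principal transcript searched per gene, YTHDF1, YTHDF3, YTHDC1, YTHDC2, IGF2BP1 and HNRNPA2B1 shared none, but exons outside those transcripts were not searched. Over all annotated exons, HNRNPA2B1 overlaps CBX3 on the opposite strand by 368 of 9267 bases, and IGF2BP1 overlaps antisense genes by 37 and 76 of 9109 bases.

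All 10 readers were expressed, and they covered a wide range of levels. As RPKM (reads per kilobase of annotated exon, scaled to the TMM library size), HNRNPA2B1 stood at 325 in scramble and HNRNPC at 142, far above YTHDF1 at 35.3, IGF2BP2 at 33.0 and IGF2BP1 at 25.5. YTHDF2 followed at 18.98, YTHDC1 at 16.5, YTHDF3 at 11.3, IGF2BP3 at 7.71 and YTHDC2 at 4.27. The counting intervals of neighbours in this order did not overlap. The order does depend on the gene length used: with the longest annotated transcript as length, IGF2BP2 (42.3) lay above YTHDF1 (35.3), and IGF2BP3 (15.4) above YTHDF3 (13.4). In shFTO the order was the same except that IGF2BP1 (32.0, interval 31.5 to 32.6) lay above IGF2BP2 (30.2, interval 29.4 to 30.9), and this change of order was absent with the longest transcript as length, at 35.2 against 38.7. That length gave 2 other changes of order in shFTO, where YTHDF1 (47.4) lay above IGF2BP2 (38.7) and YTHDF3 (16.9) above IGF2BP3 (16.0).

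**Figure D1:**
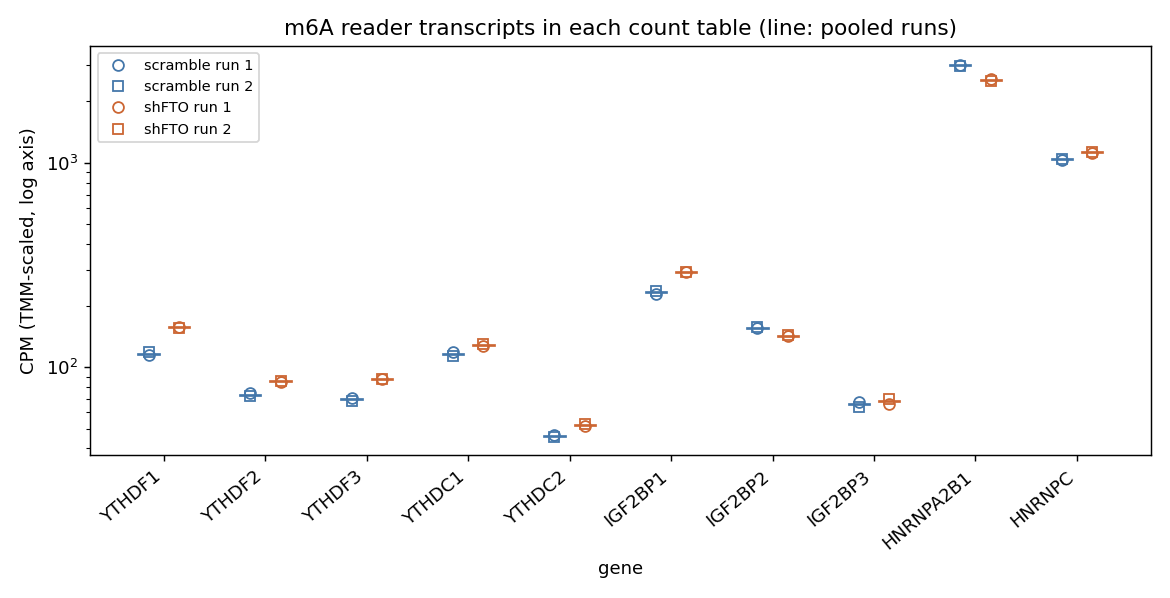
Levels of the 10 reader transcripts in the 4 count tables, in CPM on a log axis. Circles and squares are runs 1 and 2, and short lines are the pooled runs. The runs of a group nearly coincide, and only for IGF2BP3 do the runs of scramble and shFTO overlap. For 81.6% of all tested genes the runs of the groups do not overlap.

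No reader differed by 2-fold, and most differences were small. A ratio is called past the mark here where shFTO was at least 25% higher than scramble, or, the same ratio downward, at least 20% lower. YTHDF1, YTHDF3 and IGF2BP1, 3 of the 10, were higher past the mark, where 22.8% of all tested genes were, and 0 were lower past it, where 24% were. That is 3 of 10 either way, against 46.8% of tested genes, a share not above the background. A fold of 1.5 either way was passed by 0 of the 10 and by 24.8% of tested genes, and 2-fold by 0 and by 11.4%. The counting interval lay above no difference for 7 members (34.6% of tested genes), below it for 2 (34.5%) and thus off it for 9 (69.1%). By edgeR's quasi-likelihood test 7 members were called higher (33.2% of tested genes), 2 lower (33.4%) and 9 either way (66.6%). That test compares these libraries and not the conditions. Both the interval counts and the edgeR counts depend on read depth, which differs between genes. The members held 1765 to 114939 pooled reads a group, while the tested genes include H19 with 9 to 22 reads a table. The ratio was above 1 for 8 members (50.9% of tested genes), and for 9 with plain library size (65.3%). The median log2 ratio of the 10 was 0.16 beside 0.01 over all tested genes. The runs of scramble and shFTO did not overlap for 9 of the 10, as for 81.6% of tested genes. The 2 runs of a group differed by 0.0692% to 5.66% for the members.

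The scaling of the libraries weighs on changes of this size. The TMM factors were 0.943 and 0.944 for scramble against 1.059 and 1.060 for shFTO, and scaling by plain library size adds 0.17 to every log2 ratio and moves the median of all tested genes to 0.18. Of the 10 members, 8 were higher than scramble under TMM, DESeq2 size factors, upper quartile and plain library size alike, HNRNPA2B1 was lower under all 4, and IGF2BP2 changed direction. With plain library size 5 members were higher past the mark and 0 lower, while among all tested genes 4992 were higher and 2266 lower past it, against 3136 and 3307 with TMM. The 10 genes took 0.466% and 0.463% of the raw reads in scramble and 0.498% and 0.495% in shFTO, yet summed 4925 and 4689 CPM after TMM scaling. HNRNPA2B1 alone held 3009 and 2549 of these CPM, so it weighs most in the sum. The YTH and IGF2BP genes without the hnRNP genes took 0.0825% and 0.0826% of the raw reads in scramble and 0.107% and 0.108% in shFTO. These raw shares hold no TMM scaling, and with it the rise is smaller. Summed per kilobase with TMM, the log2 ratio was 0.35 for the YTHDF genes, 0.15 for YTHDC and 0.08 for IGF2BP. With plain library size these were 0.52, 0.32 and 0.25. Differences between 2 members do not depend on the scaling, although removal of the trend of the ratio on gene length moves them.

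**Figure D2:**
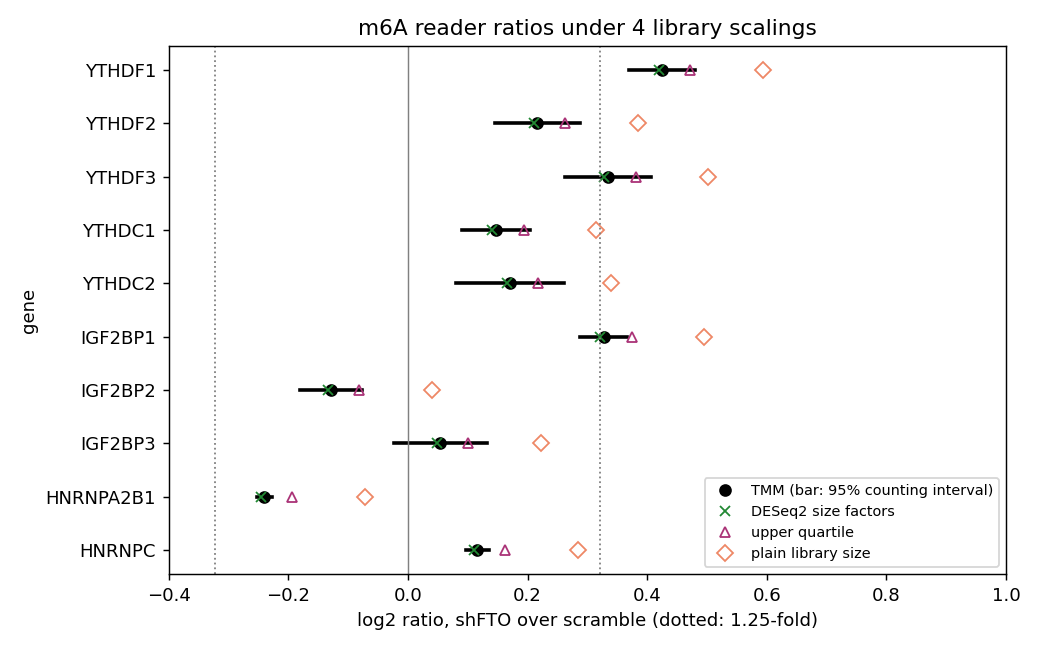
Log2 ratio of shFTO over scramble for each reader under 4 library scalings. Black points are TMM values with 95% counting intervals, and dotted lines are the marks for 25% higher and 20% lower. Plain library size (diamonds) lies 0.17 to the right for each gene and takes IGF2BP2 from -0.13 to 0.04.

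The 3 YTHDF transcripts were all higher in shFTO. YTHDF1 (ENSG00000149658), known for aiding translation of m6A transcripts, stood at 115 and 118 CPM (counts scaled to the TMM library size) in scramble run 1 and run 2 and at 158 and 155 in shFTO. It was 1.34-fold higher (1.29 to 1.39), the largest ratio of the 10 members, yet 36.0% of tested genes lay farther from no difference. YTHDF2 (ENSG00000198492), the best known decay reader, had 74.5 and 72.0 CPM in scramble and 84.3 and 85.9 in shFTO. Its ratio was 1.16-fold higher (1.11 to 1.22). YTHDF3 (ENSG00000185728), which works with the other two, had 71.0 and 68.4 CPM in scramble and 87.9 and 87.8 in shFTO, 1.26-fold higher (1.20 to 1.32). For each of the 3 genes both shFTO runs lay above both scramble runs. The runs of the groups did not overlap for 81.6% of tested genes. The counting intervals of YTHDF3 and IGF2BP1 reach below the mark, so their place past it is not firm.

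Within the YTHDF family the ratios were uneven. The log2 ratio of YTHDF1 exceeded that of YTHDF2 by 0.21 (95% counting interval of the log odds, normal approximation, 0.12 to 0.30), and that of YTHDF3 exceeded that of YTHDF2 by 0.12 (0.02 to 0.22). The log2 ratios of YTHDF1 and YTHDF3 differed by 0.09 (0.00129 to 0.18). Without the length trend that difference was 0.17, and the one between YTHDF2 and YTHDF3 was -0.05, so which of them lie closest depends on the length correction. Summed per kilobase, the family stood at 65.6 RPKM in scramble and 83.7 in shFTO, a ratio of 1.28 and a log2 ratio of 0.35, or 0.52 with plain library size. YTHDF1 made up 53.8% of that sum in scramble and 56.6% in shFTO, YTHDF2 28.9% and 26.3%, and YTHDF3 17.2% and 17.0%. By run, YTHDF1 took 53.1% and 54.6% in scramble against 56.9% and 56.3% in shFTO, so the runs did not overlap.

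The 2 YTHDC transcripts were slightly higher with TMM and kept their proportion. YTHDC1 (ENSG00000083896), the nuclear reader, had 118 and 114 CPM in scramble and 127 and 130 in shFTO, 1.11-fold higher (1.06 to 1.15). YTHDC2 (ENSG00000047188), an RNA helicase known chiefly for its part in meiosis, had 46.7 and 45.7 CPM in scramble and 51.4 and 52.6 in shFTO, 1.13-fold higher (1.06 to 1.20). In both genes the runs of the groups did not overlap, as in 81.6% of tested genes. Their log2 ratios differed by -0.02 (-0.13 to 0.08), so no difference between them was detectable at this depth. YTHDC1 held 79.4% of the pair's reads per kilobase in scramble and 79.1% in shFTO. Removal of the trend of the ratio on gene length took YTHDC2 from a log2 ratio of 0.17 to 0.07. With plain library size the log2 ratio was 0.315 for YTHDC1 and 0.339 for YTHDC2, which puts YTHDC2 past the mark.

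With TMM the IGF2BP genes went different ways, while with plain library size each was higher in shFTO. IGF2BP1 (ENSG00000159217), an oncofetal stabiliser of MYC and other transcripts, had 228 and 237 CPM in scramble and 291 and 292 in shFTO, 1.255-fold higher (1.22 to 1.29). IGF2BP2 (ENSG00000073792), the member most widely expressed in adult tissue, had 155 and 157 CPM in scramble and 143 in each shFTO run, 1.09-fold lower (1.05 to 1.13) with TMM but at a log2 ratio of 0.04 with plain library size. IGF2BP3 (ENSG00000136231), the other oncofetal member, had 67.2 and 64.1 CPM in scramble and 66.3 and 70.0 in shFTO. With TMM its ratio of 1.04 (0.984 to 1.10) spanned no difference and its runs overlapped. The log2 ratio of IGF2BP3 was 0.05 with TMM, 0.22 with plain library size and -0.02 without the length trend. MALSU1, which overlaps it, was 1.24-fold lower (1.17 to 1.32), and the part of shared reads in the IGF2BP3 value was not tested.

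Of the 8 pairs within the YTHDF, YTHDC, IGF2BP and hnRNP groups, IGF2BP1 and IGF2BP2 differed most in log2 ratio as measured, but without the length trend their difference was 0.37 and that of HNRNPA2B1 and HNRNPC was -0.39. The log2 ratio of IGF2BP1 exceeded that of IGF2BP2 by 0.46 (0.39 to 0.52) and that of IGF2BP3 by 0.27 (0.19 to 0.36). The log2 ratio of IGF2BP2 minus that of IGF2BP3 was -0.18 (-0.27 to -0.09), or -0.10 without the length trend. In reads per kilobase IGF2BP1 held 38.5% of the family in scramble and 45.6% in shFTO, and IGF2BP2 49.8% and 43.0%. The share of IGF2BP3 was 11.7% and 11.4%. The family sum was 66.2 RPKM in scramble and 70.2 in shFTO, a log2 ratio of 0.08, or 0.25 with plain library size. With the longest transcript as length the shares of IGF2BP1 were 32.7% and 39.2% and those of IGF2BP2 49.3% and 43.0%, a shift of the same direction.

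**Figure D3:**
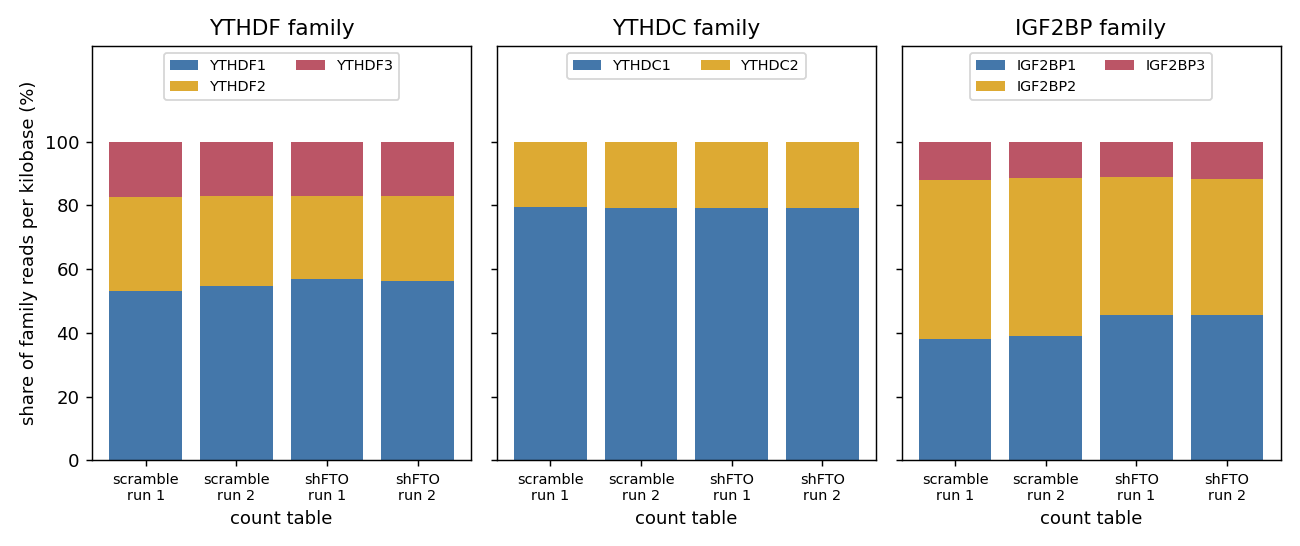
Share of each paralog in the summed reads per kilobase of its family, in each count table. In the IGF2BP family IGF2BP1 takes 38.2% and 38.9% in scramble run 1 and run 2 against 45.7% and 45.5% in shFTO, whereas the YTHDC shares stay near 79.4% and 79.1% for YTHDC1.

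The 2 hnRNP readers also moved apart, by small amounts measured on many reads. HNRNPA2B1 (ENSG00000122566), a splicing factor that also sorts microRNAs, had 3032 and 2987 CPM in scramble and 2575 and 2522 in shFTO, 1.18-fold lower (1.17 to 1.19). With plain library size its log2 ratio went from -0.24 to -0.07. HNRNPC (ENSG00000092199), which packages nascent transcripts and binds uridine tracts, had 1037 and 1044 CPM in scramble and 1123 and 1132 in shFTO, 1.08-fold higher (1.07 to 1.10). The log2 ratio of HNRNPA2B1 lay below that of HNRNPC by 0.36 (0.33 to 0.38). For both genes the runs of the groups were apart, as for 81.6% of tested genes. For HNRNPA2B1 58.0% of tested genes lay farther from no difference, and for HNRNPC 78.7%. Removal of the length trend took HNRNPC from a log2 ratio of 0.12 to 0.07.

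**Figure D4:**
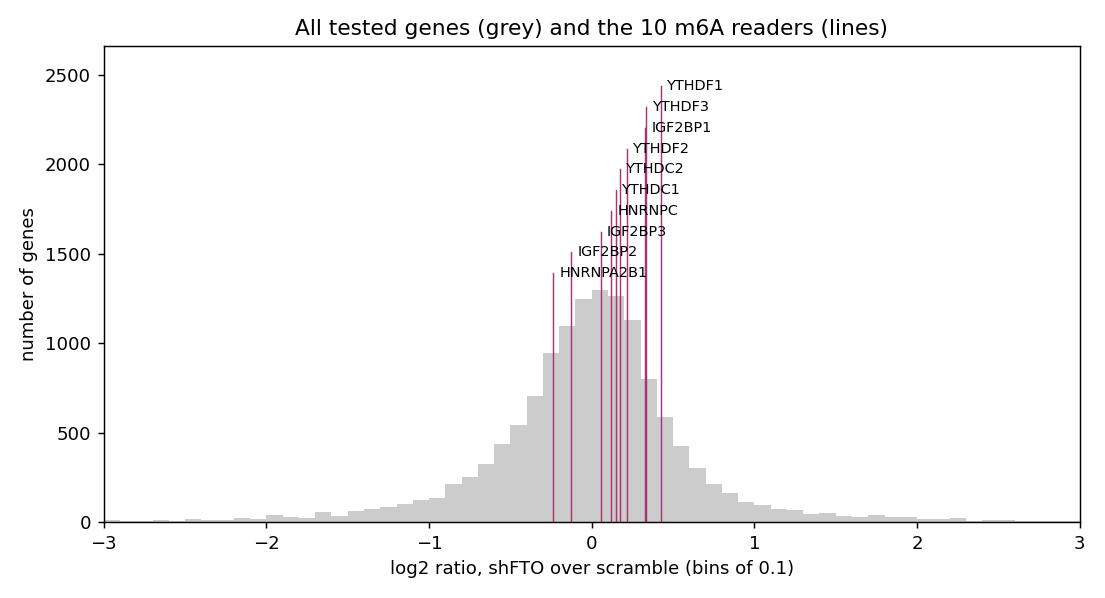
Number of tested genes by log2 ratio of shFTO over scramble in bins of 0.1, with the 10 readers as lines; 13580 genes lie within the drawn range and 187 outside it. All 10 lines fall in the central part of the distribution, from -0.24 for HNRNPA2B1 to 0.43 for YTHDF1.

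Transcripts of the proteins that write the mark were mixed. Of 8 tested writer genes 3 were higher past the mark and 1 lower (median log2 ratio 0.08), or 3 and 0 with plain library size. With TMM 22.8% of all tested genes were higher and 24% lower past it. METTL16, a separate methyltransferase, was 1.60-fold higher (1.49 to 1.71), METTL14, the RNA-binding partner of the catalytic subunit, 1.35-fold higher (1.249 to 1.45), and the scaffold ZC3H13 1.27-fold higher (1.23 to 1.32). METTL3, the catalytic subunit, was 1.38-fold lower (1.31 to 1.46). RBM15B was listed at 0 in all 4 tables. As the annotation release behind the counts is not given, this does not show that the gene was silent. ALKBH5, the other known eraser beside FTO, was 1.13-fold lower (1.08 to 1.18), with a log2 ratio of -0.01 under plain library size. Of the transcripts of 10 other proteins reported to bind m6A RNA, 1 was higher past the mark and 2 lower (median -0.12, or 0.05 with plain library size, where 4 were higher and 2 lower). The transcript of the stress granule protein G3BP2 was 1.27-fold higher (1.24 to 1.31), while FMR1 and FXR1, of the fragile X family, were 1.63-fold (1.55 to 1.71) and 1.41-fold (1.37 to 1.44) lower. FXR2, the other member of that family, was 1.19-fold higher (1.12 to 1.26).

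Most transcripts of partners through which the YTH proteins act stayed within the mark. Of 16 genes for deadenylation and decay 2 were higher past the mark and 3 lower. Of all tested genes 22.8% were higher and 24% lower past it. The median of the 16 was -0.02, or 0.15 with plain library size, where 4 were higher and 1 lower past the mark. The deadenylase subunit CNOT8 had 1977 and 2098 reads in scramble and 944 and 924 in shFTO and was 2.47-fold lower (2.34 to 2.62). A difference of 2-fold either way was passed by 11.4% of all tested genes. CNOT1, the scaffold of CCR4-NOT that YTHDF2 contacts, was 1.30-fold higher (1.27 to 1.33), and the decay helicase DDX6 1.35-fold higher (1.28 to 1.44). CNOT6L and CNOT11 were 1.34-fold (1.24 to 1.46) and 1.28-fold (1.23 to 1.33) lower. Of 8 tested partners of YTHDC1 and YTHDC2, 2 were higher past the mark and 0 lower, against 22.8% and 24% of tested genes. These were the splicing factors SRSF7, 1.43-fold (1.39 to 1.48), and SRSF1, 1.36-fold higher (1.33 to 1.40). The median of the 8 was 0.18, and with plain library size 5 were higher and 0 lower past the mark.

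Cofactors and bound transcripts of the IGF2BP proteins went both ways. Of 7 cofactors 1 was higher past the mark, the helicase DHX9 at 1.31-fold (1.28 to 1.34), and 1 lower, the poly(A)-binding protein PABPC1 at 1.27-fold (1.253 to 1.29). With plain library size 3 were higher and 0 lower past it. Among all tested genes 22.8% were higher and 24% lower past the mark with TMM. Of 9 tested transcripts known to be bound by IGF2BP proteins 2 were higher past the mark and 3 lower (median -0.11, or 0.06 with plain library size, where 2 were higher and 2 lower). IGF2, after which the family is named, went from 153106 and 151707 reads to 19970 and 20379 and was 8.57-fold lower (8.48 to 8.66). HMGA1, a chromatin protein gene, was 1.28-fold lower (1.26 to 1.30), and H19, a long noncoding RNA with 9 to 22 reads a table, 1.96-fold lower (1.13 to 3.48). ACTB, the beta-actin gene, was 1.26-fold higher (1.253 to 1.28). MYC, the best known of these targets, differed by a log2 ratio of -0.11, or 0.06 with plain library size.

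**Figure D5:**
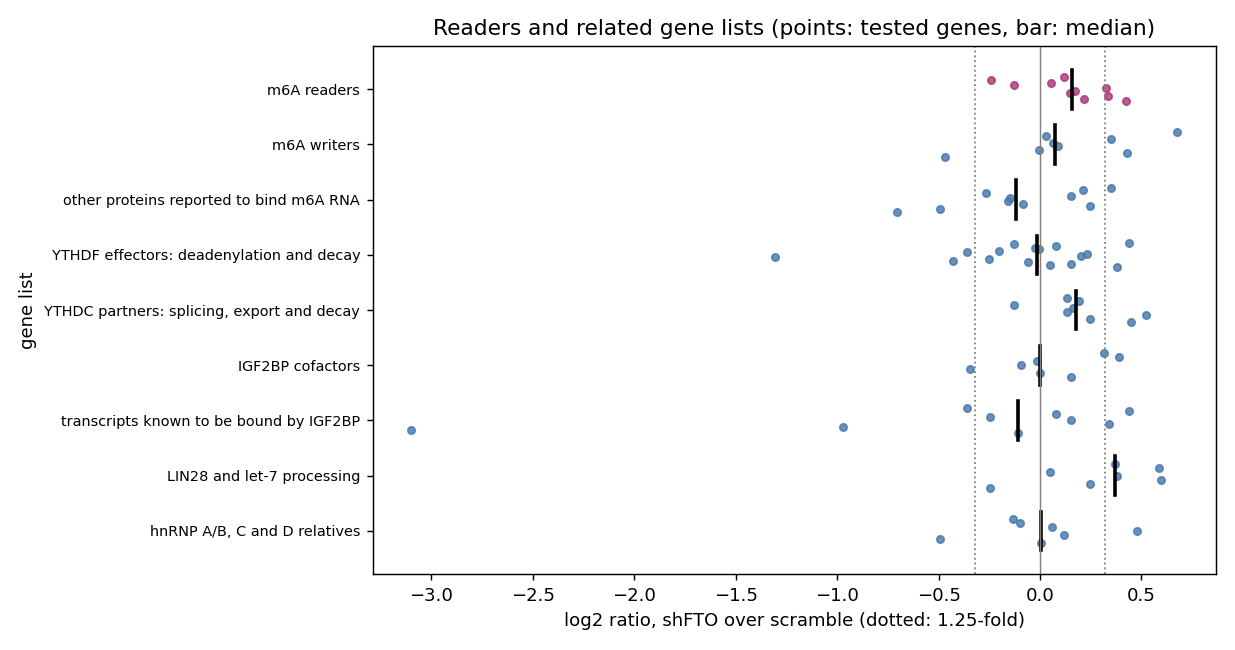
Log2 ratios of tested genes in the reader list and in related gene lists, with black bars at list medians and dotted lines at the marks for 25% higher and 20% lower. The readers span a narrower range (-0.24 to 0.43) than the decay list, which holds CNOT8 at -1.31, and the IGF2BP-bound transcripts, which hold IGF2 at -3.10.

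Cell type markers were read in the same tables. All 8 hepatocyte markers were lower past the mark, as 24% of all tested genes were, or 7 of 8 with plain library size. Their summed level was 33399 to 33423 CPM in scramble and 15328 to 15405 in shFTO. TTR, a thyroid hormone carrier, was 19.8-fold lower (16.3 to 24.1), APOC3 3.55-fold lower (3.23 to 3.91) and ALB, the albumin gene, 3.20-fold lower (3.19 to 3.22). The part of this difference in the TMM scaling and in the reader ratios was not tested. Of 8 fibroblast and stellate markers 4, COL3A1, DCN, LUM and THY1, were listed at 0 in all tables, the summed level was 207 to 213 CPM in scramble and 53.5 to 56.6 in shFTO, and 2 were tested, PDGFRB (6.42-fold lower, 5.42 to 7.66) and LOX (3.63-fold lower, 3.46 to 3.81). None of the 6 endothelial markers had enough reads to test, PECAM1, KDR and CLEC14A were listed at 0, and the sum was at most 0.466 CPM a table. Among 6 leukocyte markers PTPRC and CD3E were at 0, and the summed level of 3006 to 3013 CPM in scramble and 235 to 236 in shFTO was almost all LYZ, the lysozyme gene, which was 12.95-fold lower (12.7 to 13.2). Other leukocyte markers had few reads: CD14, with 17 to 31 reads a table, was 1.67-fold lower (1.06 to 2.66), and ITGAM had 1 and 0 reads in scramble and 12 and 18 in shFTO.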

How the data were processed

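RNA sequencing counts from 4 tables of total RNA, 2 per group, were analysed. The values deposited by the authors are raw read counts per Ensembl gene, made with TopHat2 2.1.1 and HTSeq 0.6.0 on hg19, per the submitters' processing notes. The annotation release, strand setting and read length are not given in the sources used here.

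Runs were compared by a chi-square test over genes with at least 20 reads, then summed by group. Ratios are of CPM after TMM scaling (edgeR 4.0.16, R 4.3.3), with exact Clopper-Pearson intervals. Genes passing filterByExpr were tested. edgeR's quasi-likelihood test (2 residual degrees of freedom, Benjamini-Hochberg adjusted p under 0.05) compares these libraries, not the conditions, so only counts of its calls are given. It was tested on simulated data. Gene symbols, exon lengths and transcript sequences came from reference tables and GENCODE v29 (GRCh38). The members and gene lists were chosen with earlier results of these data known. In each list up to 3 genes each way that were at least 25% higher or 20% lower are named, with METTL3, METTL14 and genes that overlap a member. MYC, RBM15B, ALKBH5, FXR2, LIN28A and LIN28B fall outside that rule and were added after their values were seen. Some genes that this rule names are not reported here. Alternatives were other scalings, low count filters, DESeq2 1.42.0, a replicate block, leaving out each run, length trend removal and, added after the data were seen, another gene length.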

Additional observations from a re-analysis of the deposited data

How the results depend on the processing

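With 1 sample a group, no setting can show the spread between cultures. The members held 1765 to 114939 pooled reads a group. With TMM at that depth, the direction of IGF2BP3 and the place of YTHDF3 and IGF2BP1 past the 25% mark were within counting error. So was the difference between YTHDC1 and YTHDC2. The count of members at least 25% higher, 3 as reported, was 5 with plain library size, 1 after removal of the length trend (YTHDF1) and 0 at a fold of 1.5. It was 2 with DESeq2 size factors and 2 to 3 when single runs were left out. Among all 13767 tested genes, 3136 were at least 25% higher as reported and 4992 with plain library size. Without the length trend, 3003 of the 13445 genes with a length were. At least 25% higher or 20% lower were 46.7% of tested genes with DESeq2 size factors and 48.0% to 49.0% without single runs. No member was at least 20% lower, or 2-fold different either way, under any scaling, left-out run or length correction. Without the length trend, however, HNRNPA2B1 lay at the 20% mark within counting error, at a log2 ratio of -0.3219. By edgeR's test, 1 member in place of 2 was called lower with plain library size, as were 3041 of all genes in place of 4594. DESeq2 called 6 members higher and 2 lower, and 3256 and 3624 of all genes. The fit with the replicate number as a block called 7 members higher and 2 lower, 4606 and 4610 of all genes, and changed no call count by more than 1.5 times. The same-numbered runs did not deviate together (r = 0.00405 over 13767 genes). Without single runs the log2 ratio of YTHDF1 ran from 0.40 to 0.44 and that of HNRNPA2B1 from -0.25 to -0.23. After removal of the length trend the log2 ratio of IGF2BP1 was 0.25 and that of HNRNPA2B1 -0.32.

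With the longest transcript as length, the shares in scramble and shFTO were 47.9% and 50.8% for YTHDF1, 33.9% and 31.1% for YTHDF2, 18.2% and 18.1% for YTHDF3, 73.0% and 72.6% for YTHDC1, 27.0% and 27.4% for YTHDC2, 32.7% and 39.2% for IGF2BP1, and 18.0% and 17.8% for IGF2BP3.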

Other observations

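Genes that process, tail or degrade let-7 microRNA precursors, whose products are known to repress IGF2BP1 and other oncofetal transcripts, are described here by their counts. Of 7 tested genes 4 were at least 25% higher and 0 at least 20% lower (5 and 0 with plain library size, 2 and 0 without the length trend), where 22.8% and 24% of all tested genes were, with a median log2 ratio of 0.37 beside 0.01 over all tested genes. DGCR8, the cofactor of DROSHA, was 1.51-fold higher (1.41 to 1.62), the terminal uridylyltransferase TUT7 1.503-fold higher (1.40 to 1.62) and DICER1 1.30-fold higher (1.24 to 1.36). LIN28B, which blocks let-7 maturation, had 903 and 1009 reads in scramble and 891 and 937 in shFTO, a log2 ratio of -0.25, or -0.08 with plain library size. LIN28A had 0 reads in each scramble run and 1 and 2 in shFTO.

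Relatives of the hnRNP readers were split in the same tables. Of 7 tested, 1 was at least 25% higher, HNRNPAB at 1.39-fold (1.36 to 1.42), and 1 at least 20% lower, HNRNPA1 at 1.41-fold (1.40 to 1.42), with a median log2 ratio of 0.01. Among all tested genes 22.8% were at least 25% higher and 24% at least 20% lower. CBX3, a heterochromatin protein gene that overlaps HNRNPA2B1 by 368 exonic bases on the opposite strand, had 7657 and 7745 reads in scramble and 7643 and 7763 in shFTO, 1.13-fold lower (1.11 to 1.16), with a log2 ratio of -0.01 under plain library size. The part of shared reads in the HNRNPA2B1 value was not tested. NFE2L3, which overlaps the span of HNRNPA2B1 on the opposite strand but shares no exonic base with it, was 1.60-fold higher (1.49 to 1.72).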
